A study of Mus musculus with 4 samples.

Results

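Among the cells of XX gonads from C57BL/6 mouse embryos, 791 cells from E12.5, E13.5 and E14.5 formed a stroma defined by detection of Mgp, Islr and Lum. A cell belonged to it when at least 3 of 6 interstitial genes (Col1a1, Col1a2, Acta2, Mfap4, Tcf21, Pdgfra) and at least 2 of Mgp, Islr and Lum were above 0. Its mean over the interstitial genes also had to exceed its means over 5 supporting-cell genes (Fst, Wnt4, Wnt6, Irx3, Runx1) and over 3 mesothelial genes (Upk3b, Krt19, Krt7). At most 1 of 6 germ cell genes (Dazl, Ddx4, Dnd1, Mael, Dppa5a, Mov10l1) and at most 1 of 3 endothelial genes (Pecam1, Cdh5, Esam) could be detected. In stage order the stroma held 86, 389 and 316 cells, out of 19387 cells in the series and 14471 in these 3 libraries. Another 1190 cells (356, 622 and 212) met every criterion but the last, with fewer than 2 of Mgp, Islr and Lum detected, and are called the other interstitial cells.

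Gonads had been dissociated and captured by droplet-based 3′ single-cell RNA sequencing, with 1 library per stage (E11.5, E12.5, E13.5, E14.5). All groups share the genetic background and the XX label, and no treatment or transgene is named. How many embryos were pooled is not given in the sources used here. With 1 library per stage there was no replicate and no test, and stage and library cannot be told apart. Levels are in CPM, from the unique molecular identifiers (UMIs) of a gene and of all genes summed over the cells of a class in a library. Parentheses hold exact 95% intervals, which are Poisson for levels, Clopper-Pearson for cell shares and from the binomial split of both counts for log2 ratios, and they cover counting error only. A 3′ UMI count does not scale with transcript length, and no levels are compared between genes.

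The interstitium of the fetal gonad is the mesenchyme between the germ cell and supporting cell clusters, and it gives rise to fibroblasts, vascular support cells and steroid-producing cells. Fibroblasts build the extracellular matrix. They secrete fibrillar collagens, small proteoglycans that bind the fibrils and set their spacing, and microfibril proteins on which elastic fibres form. Mgp is a small secreted protein known as an inhibitor of calcification, Islr is a leucine-rich-repeat protein of mesenchymal stromal cells, and Lum (lumican) is a collagen-binding proteoglycan.

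The libraries held 4842, 4842 and 4787 cells in stage order, and 175 barcodes occurred in more than 1 library, 10 of them in stroma cells. The median stroma cell had 12347.5, 8784 and 10917 UMIs in the same order, against 12848, 9210.5 and 9295.5 in the other interstitial cells. Scrublet called 1, 3 and 5 of the stroma cells as doublets in stage order. Y-linked UMIs occurred in 71 stroma cells at E14.5 (22.5%) and in 18.9% of the other interstitial cells of that library, although the label is XX, and in 0 cells of the other libraries.

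Stroma cells made up 1.78% (1.42 to 2.19), 8.03% (7.28 to 8.84) and 6.60% (5.91 to 7.34) of all cells in stage order. The E13.5 and E14.5 shares lay above the E12.5 share with no overlap of the counting intervals. The number of germ cells, with at least 2 germ genes, also differed between these libraries (789, 942 and 2659), and without them the stroma made up 2.12%, 9.97% and 14.8% of the cells. As a share of the interstitial cells, the stroma accounted for 19.5% (15.9 to 23.5), 38.5% (35.5 to 41.6) and 59.8% (55.5 to 64.1). At E11.5, 118 cells met the same rule, 19.3% of the interstitial cells (16.2 to 22.6). The rule rests on detection, which depends on depth. With each cell thinned to 5000 UMIs before the rule, the interstitial shares from E11.5 to E14.5 were 10.4%, 9.96%, 27.7% and 40.4%, and 24, 232 and 194 cells met the rule at the last 3 stages. E14.5 stood above E13.5 and E13.5 above both earlier stages with and without thinning, while the intervals of E11.5 and E12.5 overlapped in both. The thinned shares were lower at every stage.

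**Figure D1:**
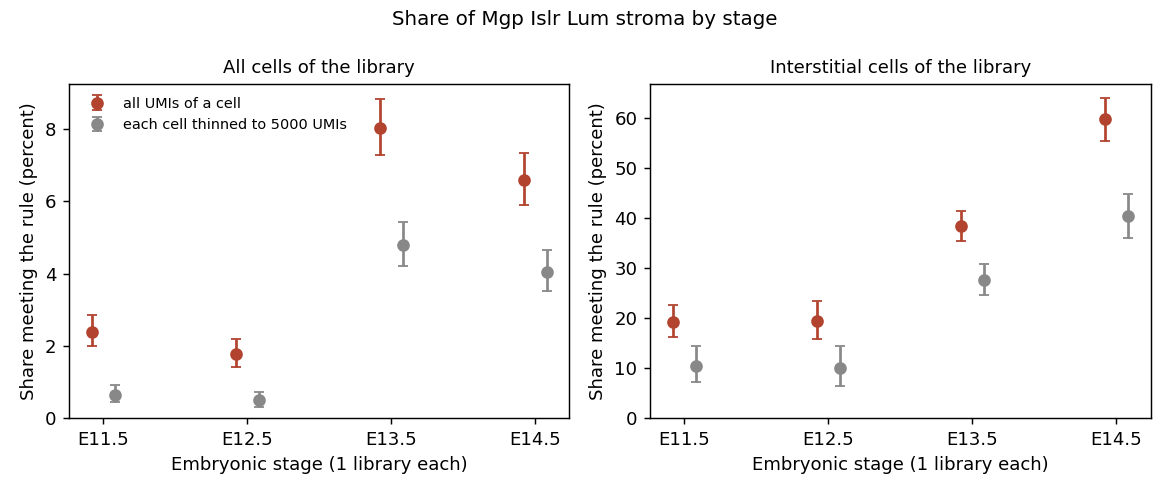
Share of cells meeting the Mgp Islr Lum rule (y axis, percent) at 4 embryonic stages (x axis, 1 library each), of all cells (left) and of interstitial cells (right). Points are shares with exact 95% binomial intervals, red with all UMIs and grey after thinning each cell to 5000 UMIs; the interstitial share with all UMIs was 19.5% at E12.5 and 59.8% at E14.5.

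The 3 defining genes were not detected equally. Mgp and Islr without Lum qualified 65, 258 and 154 cells in stage order, and all 3 genes were found in 6, 70 and 130 cells. Mgp and Lum without Islr qualified 4, 16 and 12 cells, and Islr and Lum without Mgp 11, 45 and 20. The median stroma cell carried 1, 2 and 3 Mgp UMIs in stage order, and a median of 0, 0 and 1 Lum UMIs, so that many cells lay close to the threshold of detection. On the interstitial criterion, 19, 49 and 30 stroma cells had exactly 3 of the 6 genes, and 11, 14 and 5 cells with exactly 2 met all else.

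The marker genes set for this stroma were Mgp, Islr, Lum, Mfap4, Col1a1 and Hic1, and the rule used all but Hic1. Values of the 5 that it used describe the selection. Mgp was at 164, 395 and 397 CPM in the stroma of the 3 stages, against 19.8, 40.3 and 61.6 CPM in the other interstitial cells. Lum was at 45.9, 140 and 156 CPM against 1.94, 2.85 and 6.02 CPM. Islr was the least selective of the 3, at 134, 224 and 219 CPM in the stroma and 44.3, 125 and 114 CPM in the other interstitial cells. In GRCm38, Mgp lies on the minus strand of chromosome 6 (136872435 to 136875823) and Islr on the minus strand of chromosome 9 (58156268 to 58204306).

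Hic1, a transcriptional repressor found in mesenchymal progenitors and not part of the rule, was at 116, 166 and 119 CPM in the stroma and at 60.4, 126 and 90.3 CPM in the other interstitial cells. The log2 ratios were 0.94 (0.64 to 1.23), 0.39 (0.24 to 0.54) and 0.40 (0.16 to 0.65). After thinning, 38.4%, 52.2% and 44.6% of stroma cells had a Hic1 UMI. In supporting-type cells, which should lack it, the thinned shares were 0.719%, 0.687% and 1.88% at median depths of 11730, 10549 and 9400 UMIs before thinning. The marker that the rule had not used was thus detected in the stroma of all 3 libraries, but it did not set the stroma apart from the other interstitial cells at a ratio of 2.

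To ask what else distinguished these cells, the stroma was compared with the other interstitial cells within each library. Since the cells were chosen by measured genes of the same cells, this is a description. The 26 genes of the rule were left out. A gene was called when, in each of the 3 libraries and in 1 direction, the groups together held 50 or more of its UMIs, the higher group reached 20 CPM, the ratio was 2 or more and the groups' intervals lay apart. Of 5178 genes with enough UMIs, 5 were higher in the stroma (0.0966%) and 1 was lower (0.0193%). Dcn, Col14a1, Svep1 and Cxcl12 were among the higher genes, and all 4 encode secreted proteins.

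Dcn encodes decorin, a collagen-binding proteoglycan of the same family as lumican. It was at 95.2 (78.4 to 115), 283 and 426 CPM in the stroma, against 32.0, 71.5 and 208 CPM in the other interstitial cells. The ratio was 2.97, 3.96 and 2.05, so that the E14.5 value lay just past the ratio of 2. The E14.5 log2 ratio of Dcn was 0.96 without the cells that had a Y-linked UMI and 0.98 with no germ and no endothelial gene allowed, both below that threshold. Dcn was not restricted to the interstitium, since mesothelial-type cells held 73.8 CPM at E12.5.

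Dcn and Lum are neighbouring genes on the plus strand of chromosome 10. In GRCm38, Dcn spans 97479609 to 97518143 and Lum spans 97565128 to 97572703, with 46.985 kb between the end of Dcn and the start of Lum. Kera, the next proteoglycan gene 34.176 kb beyond the end of Lum, was at 0, 0.799 and 0.263 CPM in the stroma (0 at E12.5 allows up to 2.55 CPM). Lum is part of the rule, so of these 3 genes only Dcn and Kera were free of the selection, and Kera was near or under the limit of detection.

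Col14a1, a collagen that sits on the surface of collagen I fibrils, was at 74.8, 43.7 and 42.7 CPM in the stroma, which was 2.41, 3.24 and 2.79 times the level of the other interstitial cells. With each cell thinned before the rule, its log2 ratio at E12.5 was 0.96 (0.28 to 1.59), below the threshold. Svep1, a large secreted adhesion protein, was at 27.2, 20.2 and 22.7 CPM against 8.93, 9.99 and 8.80 CPM. The smallest ratio of Svep1 was 2.03, at E13.5, on 76 stroma UMIs. Its log2 ratio at E13.5 was just under the threshold without called doublets and damaged cells (0.99) and on the median-of-ratios scale (0.99). It was 0.93 with equal weight per cell and 0.83 with no germ and no endothelial gene allowed, and at E12.5 it was 0.72 with thinning before the rule.

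Cxcl12, a chemokine that attracts cells bearing its receptor Cxcr4, showed the widest separation at E13.5. It was at 68.9, 137 and 59.8 CPM in the stroma and at 21.5, 30.6 and 22.7 CPM in the other interstitial cells, with log2 ratios of 1.68 (1.24 to 2.10), 2.16 (1.92 to 2.41) and 1.40 (0.95 to 1.87). A Cxcl12 UMI was detected in 32.6%, 30.6% and 28.5% of stroma cells, and the highest cell held 11, 23 and 17 UMIs. The thinned shares were 24.4%, 24.2% and 17.4%, against 7.30%, 10.6% and 5.19% in the other interstitial cells. In mesothelial-type cells they were 10.9%, 11.8% and 6.19%, and in supporting-type cells 1.65%, 1.00% and 0.289%. In the E11.5 cells that met the rule Cxcl12 was at 236 CPM, above each later stage. The other interstitial cells of E11.5 held 97.3 CPM, also above each of their later stages.

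Tm4sf5, a 4-pass membrane protein, was the lower gene, at 10.2, 7.72 and 11.1 CPM in the stroma and 23.7, 20.6 and 31.9 CPM in the other interstitial cells. Its log2 ratio was -1.22, -1.42 and -1.53. With no germ and no endothelial gene allowed it was -0.31 at E12.5, and the call was lost.

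A wider view came from genes whose intervals did not overlap in all 3 libraries at any ratio, a criterion added after the data had been seen. It called 73 genes higher (1.41%) and 33 lower (0.637%) of the same 5178. Sfrp2, a secreted WNT inhibitor, had log2 ratios of 1.81, 2.09 and 0.94. Osr1, a zinc finger factor of the intermediate mesoderm, had 1.99, 1.51 and 0.56, with the difference smallest at E14.5, where the other interstitial cells had reached 40.3 CPM from 12.6 CPM at E12.5. Ecm1, a secreted matrix protein, went the other way, with 0.84, 1.54 and 1.76. Gsn, which severs actin filaments, held at 1.00, 1.11 and 1.00. Among the lower genes was Lhx9, a homeobox gene needed to form the gonad, at -0.70, -0.41 and -0.47.

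**Figure D2:**
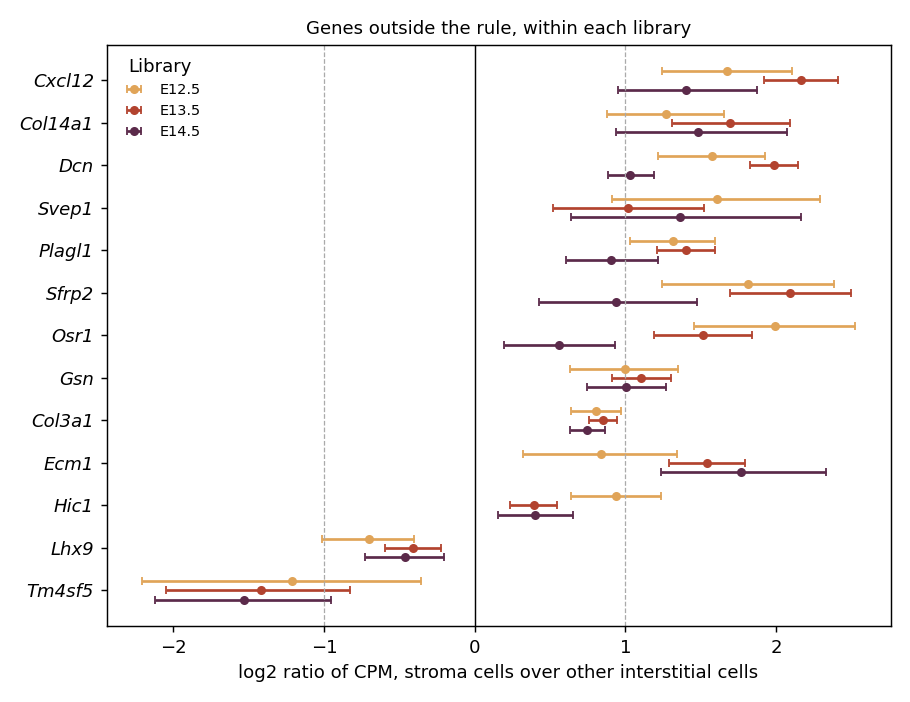
Log2 ratio of CPM in the Mgp Islr Lum stroma over the other interstitial cells (x axis) for 13 genes outside the rule, with 1 point per library and exact 95% intervals; dashed lines mark a ratio of 2 in each direction. Cxcl12, Col14a1, Dcn and Svep1 lie right of the line in all 3 libraries and Tm4sf5 left of it, while Hic1 and Lhx9 stay within both lines.

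Lists of genes were then set beside all genes as a description. The lists were written with earlier results of these data known. Matrix genes had also defined the cells, so higher matrix lists partly reflect the selection. Over all 5178 genes the median log2 ratio of stroma to other interstitial cells was -0.01. In all 3 libraries, 1001 genes (19.3%) were higher and 1007 (19.4%) were lower. Of the fibrillar collagens outside the rule, 4 had enough UMIs, all 4 were higher in every library, and their median was 0.57. Col3a1, a chain of collagen III, was at 353, 506 and 605 CPM against 202, 281 and 360 CPM. Of the other interstitial collagens, 5 of 6 were higher in every library, with a median of 0.57 that included Col6a1, Col6a2 and Col14a1.

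The elastic fibre and microfibril list had 6 of 8 genes higher in every library and a median of 0.25. For collagen processing enzymes it was 8 of 15 and 0.23, and for matrix breakdown and its inhibitors 9 of 12 and 0.29. Serpinh1, the collagen chaperone of the endoplasmic reticulum, was at 990, 999 and 949 CPM against 882, 837 and 787 CPM. Of the basement membrane genes, 3 of 7 (42.9%) were higher and 1 (14.3%) was lower in every library, beside 19.3% and 19.4% over all genes. Among them, Col4a5 was higher with intervals that did not overlap, while the median of the list was -0.001. The median ratio of each of these matrix lists lay below 2, and that of the basement membrane list lay next to the median of all genes.

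Among regulators, 13 of 21 interstitial transcription factors were higher in every library (median 0.21), among them Meis1, Meis2, Hic1 and Osr1 with intervals that did not overlap. Gonadal transcription factors went mostly the other way, with 6 of 10 lower and 2 higher in every library, beside 19.4% lower over all genes. Their median was -0.09, against -0.01 over all genes, and only Lhx9 had intervals that did not overlap. The hedgehog list had 4 of 4 higher with a median of 0.32, but Ptch1, a direct target, was at only 5.10, 3.73 and 6.85 CPM. Cell cycle genes had 1 of 22 higher and 3 lower in every library, beside 19.3% higher and 19.4% lower over all genes.

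Several genes that the rule did not use were higher in cells with more of Mgp, Islr and Lum detected, but not at every step. At E14.5, Dcn was at 174, 216, 245 and 681 CPM in interstitial cells with 0, 1, 2 and 3 of these genes detected. Col3a1 was at 266, 381, 454 and 817 CPM in the same cells. At E13.5, Cxcl12 was at 18.9, 34.6, 108 and 260 CPM. Dcn at E13.5 was lower with 1 gene (66.8 CPM) than with 0 (85.5 CPM), and Hic1 at E14.5 was at 98.0 and 98.7 CPM with 1 and 2. Cxcl12 at E12.5 was at 69.0 and 67.3 CPM with 2 and 3, but the class with 3 held only 6 cells, too few to place that step. The median depth of the 4 classes at E14.5 rose with the number detected, at 9268.5, 9364, 10780 and 11152.5 UMIs. It fell at E12.5 (12971.5, 12832, 12382 and 12208 UMIs) and had no steady direction at E13.5 (9013, 9284, 8600 and 9740.5 UMIs). The part of depth was not tested. For Dcn and Col3a1 at E14.5, the step from 2 to 3 genes was larger than the step across the threshold of the rule, from 1 to 2.

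**Figure D3:**
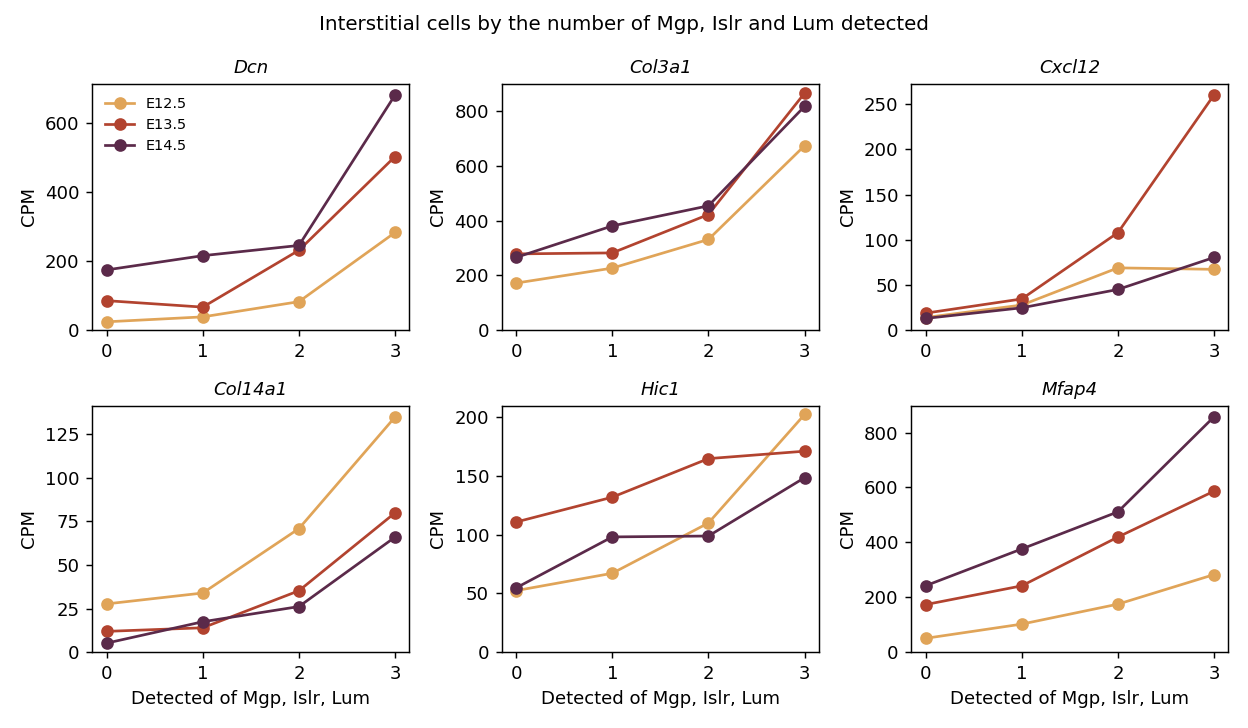
CPM of 6 genes (y axes) in interstitial cells grouped by how many of Mgp, Islr and Lum were detected (x axis, 0 to 3), with 1 line per library; cells at 2 and 3 form the stroma. Dcn at E14.5 was at 245 CPM with 2 genes and 681 CPM with 3, and Mfap4 belongs to the interstitial genes of the rule. The class with 3 genes at E12.5 held only 6 cells.

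The stroma was next compared between stages. By the same rule of size, applied to a pair of libraries, 151 of 6007 genes were higher at E14.5 (2.51%) and 95 were lower (1.58%). Of these, 133 were higher at each step and 76 were lower at each step. Taken alone, the step from E12.5 to E13.5 had 66 higher (1.12%) and 116 lower (1.97%) of 5883 genes, and the next step had 72 higher (1.23%) and 46 lower (0.787%) of 5845. The other interstitial cells gave 134 higher (2.28%) and 85 lower (1.45%) genes of 5866, and 69 higher and 35 lower genes were called in both. These are 45.7% and 36.8% of the stroma's calls, and 0 genes were called in opposite directions.

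RNA of other cell types entered some of these calls. At E12.5, 1 stroma cell carried 94.0% of the erythroid-marker UMIs of the stroma, and 1 carried 96.2% of the immune-marker UMIs. At E14.5, 5 cells carried 77.1% of the erythroid-marker UMIs, and 46 cells lay in a sub-cluster led by supporting-cell genes. An alternative added after the data had been seen therefore left out 66 cells, 5 at E12.5 and 54 at E14.5: those over 20000 CPM of erythroid or 2000 CPM of immune markers, and sub-clusters with a median doublet score above 0.1. It gave 130 higher (2.16%) and 88 lower (1.46%) of 6014 genes, with 99 and 68 shared with the full set. Against the other interstitial cells, it called 6 genes higher (0.115%) and 3 lower (0.0577%) of 5201, with Plagl1 added to the higher and Kctd14 and Akr1cl to the lower.

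Of the 12 higher genes with the largest ratios, 7 were not called without these cells, among them Mt2, Clu, Car2, Cited4, Gstm6 and Klf1. Mt2 was at 0.850, 5.06 and 85.6 CPM with all cells and at 9.21 CPM at E14.5 without them. Clu was at 36.6 CPM at E14.5 with all cells and at 8.87 CPM without them. The other 5 genes (Fbln5, Htra3, Pdgfrl, Itih5 and Eln) were called in both.

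Those 5 genes act outside the cell or at its surface. Fbln5, which helps assemble elastic fibres, was at 5.95, 36.2 and 59.5 CPM in stage order. Its log2 change from E12.5 to E14.5 was 3.32 (2.26 to 4.65), against 2.97 (2.17 to 3.85) in the other interstitial cells. Eln, the elastin gene itself, was at 15.3, 59.9 and 102 CPM, a log2 change of 2.74 (2.06 to 3.51) against 1.78 (1.39 to 2.18). Elastin and its assembly partner were both higher at each later stage.

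Htra3, a secreted serine protease, was at 5.95, 29.8 and 56.1 CPM, and its relative Htra1 at 8.50, 20.2 and 55.8 CPM. Itih5, a secreted protein that binds hyaluronan, was at 8.50, 17.6 and 59.8 CPM, with a log2 change of 2.81 (1.91 to 3.89) against 2.44 (1.95 to 2.94) in the other interstitial cells. Pdgfrl, a protein related to PDGF receptors, was at 4.25, 19.7 and 37.4 CPM. The intervals of Itih5 overlapped between the groups of cells, whereas those of Htra3, at 3.24 (2.17 to 4.57) and 1.84 (1.35 to 2.34), barely did.

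The counts of the lists from E12.5 to E14.5 stand beside 2.51% higher and 1.58% lower over all genes. Of the elastic fibre and microfibril genes, 4 of 11 were higher at E14.5 (Eln, Fbln5, Ltbp4 and Mfap4) and 0 were lower, with a median log2 change of 0.55 against -0.02 over all genes. The other interstitial cells also had 4 of 11 higher, with a larger median of 0.93. Of 3 small leucine-rich proteoglycans with enough UMIs, Dcn and Lum were higher, and Dcn changed by 2.16 (1.89 to 2.45). Col1a1 was the only one of 6 fibrillar collagens past the ratio of 2, with 285, 522 and 587 CPM. Col6a1 and Col6a2, chains of the microfibrillar collagen VI, were higher among 6 other collagens, with log2 changes of 1.36 and 1.44. Loxl1 and Adamts2, which cross-link and trim matrix proteins, were the higher ones among 18 processing enzymes. Of 7 basement membrane genes, 0 were called in either direction. In the other interstitial cells, 1 of 6 fibrillar collagens, 2 of 6 other collagens, 3 of 16 processing enzymes and 1 of 2 small proteoglycans were higher. Also in those cells, 1 of the 6 other collagens and 1 of 8 basement membrane genes were lower. Mfap4, Col1a1, Lum, Mgp and Acta2 are genes of the rule, so their stage values also reflect which cells the rule admitted.

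Of 11 contractile genes, Acta2 (a gene of the rule), Tagln and Myl9 were higher, beside 2.51% of all genes. The other interstitial cells had 4 of 12 higher and 1 lower. Tagln, an actin-binding protein of smooth muscle, was at 16.1, 32.8 and 69.0 CPM. Of the IGF list, 4 of 12 genes were higher (Igf1, Igfbp6, Htra1, Htra3) and Igf2 was lower, against 5 higher and 2 lower of 12 in the other interstitial cells. Igf2, the main fetal growth factor of the family, was at 408 CPM at E12.5 and at 130 and 137 CPM afterwards, while Igf1 was at 40.8, 61.5 and 96.9 CPM. Igf2 was thus low from E13.5 on, whereas Igf1 was higher at each step.

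Esr1, the oestrogen receptor alpha gene, was at 5.10, 10.9 and 20.5 CPM and passed the rule.

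Among the 12 genes with the largest falls, Cxcl2, Pf4 and Calb1 were not called without the 66 cells. All Cxcl2 UMIs in the sub-cluster that held most of them came from 1 cell. Hbb-y and Hba-x, embryonic globin genes, were at 4903 and 193 CPM at E12.5 with all cells and at 346 and 26.7 CPM without them, and remained lower at E14.5. Globin RNA is not made by fibroblasts, and the part of free RNA in these values was not tested.

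Of the other genes with the largest falls, Nr4a1, an immediate early nuclear receptor gene, was at 46.8 CPM at E12.5, and its log2 change was -3.22 (-4.06 to -2.45). Zfp36, which promotes decay of unstable mRNAs, was at 134, 74.3 and 24.5 CPM, and Dusp6, a phosphatase that acts on ERK, at 57.0, 34.4 and 14.2 CPM. Alx1, a homeobox gene, was at 34.0, 19.4 and 5.80 CPM, and Asb4, at 76.5 CPM at E12.5, had a log2 change of -2.45. Foxp2, a forkhead factor, was at 33.1, 23.2 and 7.64 CPM. All 6 were lower at each step. With thinning before the rule, Alx1 had a log2 change of -0.48 (-2.05 to 1.52), and its call was lost.

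Car3, a carbonic anhydrase, was at 35.7, 11.2 and 2.63 CPM in the stroma, a log2 change of -3.76 (-4.92 to -2.74). In the other interstitial cells it was at 16.7 and 14.9 CPM at E12.5 and E13.5, with a log2 change to E14.5 of -0.36 (-1.04 to 0.27). The 2 intervals did not overlap, and the difference between them was not tested.

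Of the immediate early and dissociation stress genes, 7 of 12 were lower at E14.5 (Fos, Fosb, Junb, Egr1, Ier2, Zfp36 and Socs3) and 0 were higher, beside 1.58% lower over all genes, with a median of -1.21. Fos was at 938, 483 and 269 CPM in the stroma and at 759, 455 and 253 CPM in the other interstitial cells. These genes respond within minutes to handling of tissue, and the other interstitial cells of the same libraries showed 5 of 11 lower. Any part of cell dissociation in the falls was not tested.

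Of 26 interstitial transcription factors, Twist2, Foxp2, Ebf1 and Nr2f1 were lower at E14.5, beside 1.58% of all genes, and 0 were higher. Without the 66 cells the same 4 were lower and Prrx1, a homeobox gene of mesenchyme, was called higher, with a log2 change of 1.07 against 0.98 with all cells. Of the same list, 3 of 25 genes were lower and 1 was higher in the other interstitial cells. Ebf1 was at 43.4, 40.0 and 15.5 CPM in the stroma and at 50.3, 33.9 and 3.24 CPM in the other interstitial cells. Its log2 change was -1.48 (-2.05 to -0.91) in the stroma and -3.96 (-5.28 to -2.89) in the others, with no overlap and no test of the difference. Hmga2 and Igf2bp1, genes of embryonic growth named after their values were seen, were at 1078 and 82.5 CPM at E12.5 and at 286 and 26.1 CPM at E14.5. In the other interstitial cells Hmga2 was at 929 and 287 CPM.

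**Figure D4:**
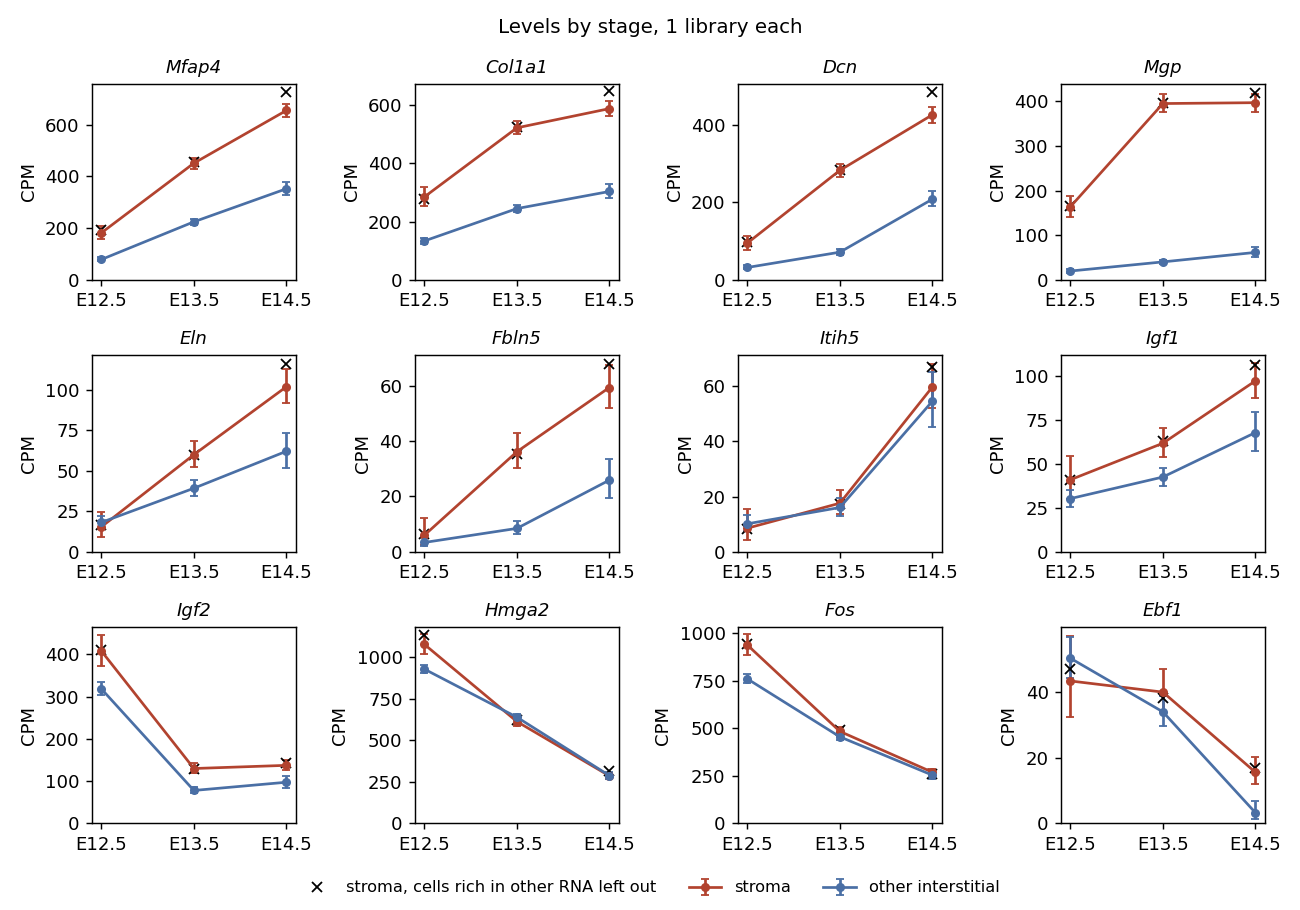
CPM of 12 genes (y axes) at E12.5, E13.5 and E14.5 (x axis, 1 library each) in the Mgp Islr Lum stroma (red) and the other interstitial cells (blue), with exact 95% Poisson intervals; crosses give the stroma without the 66 cells rich in RNA of other cell types. Elastin (Eln) was at 15.3 CPM at E12.5 and 102 CPM at E14.5 in the stroma, while Igf2, Hmga2, Fos and Ebf1 were lower at E14.5 in both groups of cells.

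Genes of proliferating cells were detected in most stroma cells at E12.5 and E14.5. After thinning, 72.1% (61.4 to 81.2), 37.5% (32.7 to 42.6) and 64.2% (58.7 to 69.5) of them had a UMI of Mki67 or Top2a in stage order. The other interstitial cells gave 65.7%, 32.6% and 67.0%, and supporting-type cells, which leave the cycle early, 14.4%, 7.99% and 13.7%. E13.5 was the lowest stage in all 3 classes. The E13.5 library also had the fewest UMIs per cell before thinning.

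Clustering the 791 cells without the genes of the rule and of the cell cycle list gave 7 sub-clusters, described here by their leading genes. Sub-cluster 1, with 245 cells (14, 145 and 86 in stage order), was led among genes found in many of its cells by Ogn, Tagln, Ecm1, Lum and Fbln5. It held 584 CPM of Dcn, 265 of Lum, 169 of Cxcl12 and 814 of Col1a1, the highest of the 7 for these genes, and 14.7% of its cells had a thinned Mki67 or Top2a UMI. Sub-cluster 3, with 134 cells, was led by Tm4sf5, Angptl7, Upk3b and Krt19, the latter pair being mesothelial genes of the rule. It held 163 CPM of Dcn, 25.4 of Lum and 35.6 of Cxcl12, and 15.7% of its cells had such a UMI. Of the 134 cells of sub-cluster 3, 27 had a Upk3b UMI, 22 a Krt19 UMI and 26 a Tm4sf5 UMI. The cells with few Mki67 or Top2a UMIs thus split into 2 groups. Sub-cluster 1 was high in fibre-associated genes, and sub-cluster 3 had little Lum and mesothelial RNA in a minority of its cells.

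Sub-clusters 2 (142 cells), 4 (125 cells) and 5 (83 cells) were led by genes of DNA replication, mitosis and histones, and 80.3%, 100% and 98.8% of their cells had a Mki67 or Top2a UMI. Lum was at 137, 124 and 38.5 CPM in them. Hbb-y also led sub-cluster 2, where 1 cell held 91.3% of its UMIs.

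Sub-cluster 6, with 56 cells of which 46 were from E14.5, was led by Clu, Aldh1a1, Gng13, Fst and Irx3, genes of supporting cells, beside Gm2044 and Gm14226. Its median doublet score was 0.116, against 0.0253 in sub-cluster 1, and it held 7 of the called doublets. It still had 332 CPM of Mgp and 246 of Dcn. Sub-cluster 7 was 6 cells of E14.5 led by Hemgn, Rhd, Car2 and Mt2, with 1622 CPM of Mt2 and a median of 26256.5 UMIs. Both were part of the 66 cells left out above.

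**Figure D5:**
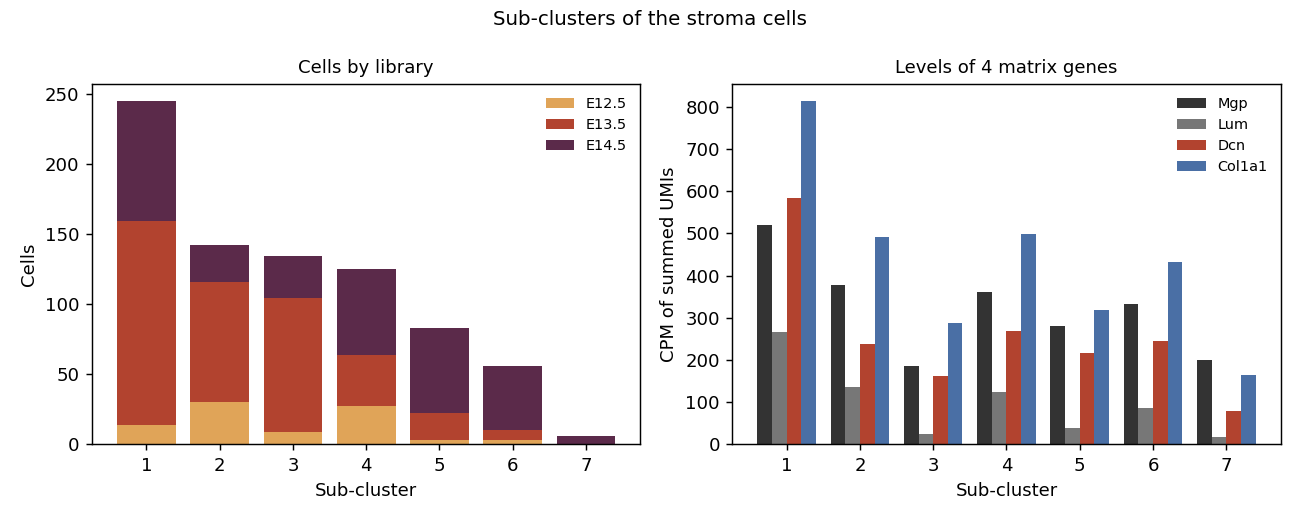
Number of stroma cells per sub-cluster (left, y axis cells, bars stacked by library) and CPM of Mgp, Lum, Dcn and Col1a1 summed over each sub-cluster (right). Sub-cluster 1, with 245 cells, has the tallest bars for all 4 genes, with 814 CPM of Col1a1.

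Markers of other cell types were summed over the whole stroma of each stage. The rule itself limited 6 of 10 germ cell, 5 of 9 pre-granulosa, 3 of 8 mesothelial and 3 of 8 endothelial genes. Low sums of these 4 lists therefore partly reflect the selection. The pre-granulosa list stood at 212, 228 and 357 CPM and at 179, 205 and 200 CPM without the 66 cells. Without them, Wnt4 of this list alone was at 65.3, 121 and 115 CPM. With all cells, Foxl2, a defining gene of that lineage, was at 0 at all 3 stages (up to 2.55, 0.799 and 0.790 CPM). Wnt6, Irx3 and Gng13 of this list were called higher at E14.5 with all cells, and 0 of the list were called higher without the 66. The smooth muscle list, which shares Acta2 with the rule, was at 339, 552 and 917 CPM, and the perivascular list at 91.8, 79.6 and 54.8 CPM. Of the endothelial list, Cdh5, a gene of the rule, was at 0 at E12.5 and E13.5. Without the 66 cells, Emcn was at 34.0, 39.9 and 19.1 CPM and Kdr at 24.8, 32.0 and 29.3 CPM. With all cells the whole list was at 74.0, 82.3 and 50.6 CPM, above the 43.1, 46.0 and 29.2 CPM of the other interstitial cells. The mesothelial list was at 34.0, 53.3 and 64.8 CPM, below their 73.0, 89.0 and 135 CPM. Tm4sf5, the lower gene above, also led the sub-cluster with Upk3b and Krt19, and the part of mesothelial RNA in its difference was not tested. The germ cell list was at 26.4, 27.4 and 60.6 CPM, against 18.2, 24.4 and 76.8 CPM in the other interstitial cells. Steroidogenic markers were at 33.1, 36.0 and 44.5 CPM, with Insl3 at 0 at every stage. Fdx1 of that list was at 28.5, 32.6 and 35.1 CPM without the 66 cells. The highest value at any stage was 16.1 CPM for the neural and glial list and 21.1 CPM for the cartilage and tendon list, and the mesonephric epithelium list lay below both.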

How the data were processed

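Gonads were profiled in 1 library per stage with the 10x Chromium 3′ kit, version 2. Per the submitters' processing notes, Cell Ranger 2.2.0 and the mm10 build were used. The deposited table holds natural log values, for which the authors scaled each cell to a total of 10000, added 1 and took the logarithm. These steps were read from the values: all 69792436 values above 0 were whole multiples of what 1 UMI is worth (100%, relative tolerance 1e-06), so UMI counts were recovered and used. All deposited cells were kept. Doublets were scored per library with Scrublet in scanpy 1.11.5 (expected rate 0.06), and members were clustered with Leiden at resolution 0.5. The rule of size was tested on simulated data with counting error only. That simulation held no variation between cells or replicate libraries, so it cannot show how these affect the calls. Thinning drew 5000 UMIs per cell. Against a count of 0, folds use a floor of 3 UMIs. Named genes were the 15 with the largest ratios per direction between stroma and other interstitial cells, the 12 per direction between E14.5 and E12.5, the genes of the rule, and examples from fixed lists. Gene positions are from GENCODE M21. The members and lists were chosen with earlier results of these data known. The alternatives tried were thinning, doublet removal, stricter rules, another scale, equal weight per cell, other thresholds, each library left out and another comparator. Some genes that met these rules are not reported here.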

Additional observations from a re-analysis of the deposited data

Results flagged for a closer look

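Y-linked UMIs (Ddx3y, Eif2s3y, Uty, Kdm5d), which the comparisons did not use, were present in 71 stroma cells at E14.5 and in 0 stroma cells of the other libraries, although all libraries carry the XX label. All 71 cells also had a Xist UMI.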

How the results depend on the processing

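No paired analysis was possible because the labels give 1 library per stage and no replicate numbers that pair them. The detection rule depends on depth. With each cell thinned before the rule, the stroma shares of all cells were 0.496%, 4.79% and 4.05% and of interstitial cells 9.96%, 27.7% and 40.4% in stage order, 3 genes were lower than in the other interstitial cells, and the cycling share at E12.5 was 83.3%. Of the main calls, this setting kept 2 of the 5 higher genes and the 1 lower gene against the other interstitial cells, and 60 of the 151 higher and 34 of the 95 lower genes between E12.5 and E14.5, so counts of similar size held partly different genes. Requiring all 3 of Mgp, Islr and Lum gave shares of 0.124%, 1.45% and 2.72% of all cells. Of the interstitial cells without those that had exactly 2 of these genes, the shares were 1.66%, 10.1% and 38.0%. This smaller base differs from that of the other settings. The same requirement gave 12 higher (3 of the 5 main calls) and 2 lower genes against the other interstitial cells. It also gave 75 genes higher at E14.5 (26 of the 151), and cycling shares of 47.1% and 53.8% at the last 2 stages. With no germ and no endothelial gene allowed, the shares of all cells were 1.20%, 6.30% and 4.43%, 3 genes were higher and 0 lower than in the other interstitial cells, and 57 genes were lower at E14.5. Without the 66 cells rich in RNA of other cell types, the E14.5 share of all cells was 5.80% and 3 genes were lower than in the other interstitial cells.

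A minimum ratio of 4 left 0 higher and 0 lower genes against the other interstitial cells, and 28 higher and 11 lower genes at E14.5. At any ratio, 73 were higher and 33 lower. A comparator with none of Mgp, Islr and Lum gave 11 higher and 3 lower genes, and equal weight per cell gave 0 lower. Leaving out 1 library in turn gave 6 to 12 higher and 2 to 3 lower genes, with 12 higher without E12.5 and 11 without E14.5. Without thinning, the cycling shares were 81.4%, 44.0% and 69.6%, and with any of 13 G2 and mitosis genes 82.6%, 67.4% and 82.0%. Leiden resolution 1 gave 11 sub-clusters.

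Of the named genes, 6 values turned in direction from E12.5 to E14.5. With thinning before the rule, Car2 was at a log2 change of -1.37 and Cited4 at -0.17. With all 3 of Mgp, Islr and Lum, Lum was at -0.11 and Hic1 at -0.45, and without cells with a Y-linked UMI, Hic1 was at -0.031. With no germ and no endothelial gene, Pf4 was at 1.48. The cause of these moves was not tested. No other setting moved a main count or share beyond its limit.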

Other observations

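At E12.5, 9 of 86 stroma cells (10.5%) had no Xist UMI, as had 6.74% of the other interstitial cells and 4.99% of the supporting-type cells of that library. At E13.5 the count was 0 of 389 stroma cells, which allows a share of up to 0.771%, and at E14.5 it was 0 of 316, which allows up to 0.949%. No cell of the E12.5 library had a Y-linked UMI.

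The 118 cells of E11.5 that met the rule held 131 CPM of Mgp, 148 of Islr and 136 of Lum. Lum and Dcn were higher there (136 and 234 CPM) than in the E12.5 stroma (45.9 and 95.2 CPM). The other interstitial cells differed in the same direction, with Lum at 8.78 and 1.94 CPM and Dcn at 81.0 and 32.0 CPM at E11.5 and E12.5. Sfrp2 was at 145 CPM at E11.5 and at 41.7, 50.6 and 36.4 CPM from E12.5 to E14.5. The cells and their other values at E11.5 were not part of the comparisons.

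Kdr, an endothelial receptor gene outside the rule, was higher in the stroma than in the other interstitial cells in all 3 libraries (log2 ratios 1.27, 0.67 and 0.77), although at most 1 of Pecam1, Cdh5 and Esam was allowed in a cell. Cdh5 was at 0 in the stroma at E12.5 and E13.5 (up to 2.55 and 0.799 CPM).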
